A study of Mus musculus with 4 samples.

Results

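The subject is a rectangle of the mouse Epha4 contact map that lies far from the diagonal: pairs of 10 kb bins of chromosome 1 (build mm9) with one bin in a left stretch, from 71 to 74.73 Mb, and the other in a right stretch, from 79.14 to 81 Mb. The members were chosen by position alone, and they made up 69378 of the 500500 bin pairs of the map (13.9%), with 373 bins on the left and 186 on the right. The ends of a pair lay 4420 to 9990 kb apart on the reference, and every rearrangement of the study fell between the stretches, so that the DNA of both stretches was the same in every allele. Capture Hi-C joins DNA ends that lie close together in fixed nuclei and counts the joined read pairs, after probes have enriched a chosen region. It was run on E11.5 distal limb buds, with 1 library for each of 4 genotypes, and the sources used here do not say whether embryos were pooled.

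The libraries came from homozygous DelB, DelBs and InvF embryos and from wild-type (WT) embryos. DelB removes Epha4, an ephrin receptor gene, together with the boundary towards Pax3, a transcription factor gene, and DelBs is a shorter deletion that keeps this boundary. InvF turns a segment on the Wnt6 side of the locus, Wnt6 being a gene for a signalling protein. In the maps the DelB deletion ran from chr1:76390001 to 78060000 (1670 kb), the DelBs deletion from chr1:76390001 to 77860000 (1470 kb), and the InvF inversion from chr1:74830001 to 75900000 (1070 kb). The deletions therefore shortened every pair of the rectangle by the same length, 1.67 Mb in DelB and 1.47 Mb in DelBs. The inversion shortened none of them.

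Contacts usually fall as the genomic distance between their ends grows. At distances beyond single domains, chromatin also sorts into compartments, in which active, gene-rich stretches meet each other more than they meet inactive, gene-poor stretches, and the reverse. Such sorting appears in a contact map as a checkerboard. Which genes lie in which block was not analysed here, as no annotation of build mm9 was used. In the gene order of the RefSeq table (GRCm38, used for order alone), the genes before Wnt6 include Igfbp2 and Igfbp5, which encode binding proteins of insulin-like growth factors, Tns1, the tensin gene, and Vil1, the villin gene. Those after Pax3 include Acsl3, an acyl-CoA synthetase gene, Serpine2, a protease inhibitor gene, Cul3, a ubiquitin ligase scaffold gene, and Dock10.

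The libraries held 5543587 counts in DelB, 5832748 in DelBs, 6073471 in InvF and 5155274 in WT. Each was scaled by its counts at 20 kb to 2 Mb between bins on the same side of every rearrangement, so that DelB counts were divided by 1.43, DelBs counts by 1.50 and InvF counts by 1.24. With 1 library per genotype there was no spread between replicates and no test, so no p-value is given. All 95% intervals below cover counting error alone.

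The rectangle was thinly filled in every library. It held 45212 counts in DelB, 42323 in DelBs, 32143 in InvF and 31264 in WT. The share of its bin pairs with at least 1 count was 45.4% in DelB, 43.5% in DelBs, 35.5% in InvF and 34.6% in WT, and no pair had more than 8 counts. These pairs thus carried 0.816% of the DelB library, 0.726% of the DelBs library, 0.529% of the InvF library and 0.606% of the WT library, although they were 13.9% of the map. Single bin pairs could not be told apart at this depth, and the values below are sums over many pairs.

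Scaled in this way, the summed level in DelB, with 1.67 Mb less between the ends, did not differ from that of WT beyond counting error. In DelBs, with 1.47 Mb less, and in InvF, with no length lost, it was lower than in WT. The scaled level was 45.5 counts per 100 bin pairs in DelB (95% interval 45.0 to 45.9), 40.8 in DelBs (40.4 to 41.1), 37.3 in InvF (36.8 to 37.7) and 45.1 in WT (44.6 to 45.6). The ratio to WT was 1.01 in DelB (0.994 to 1.02), 0.904 in DelBs (0.891 to 0.918) and 0.827 in InvF (0.814 to 0.840). DelB was 1.12 times DelBs (1.10 to 1.13), although their deletions differ by only 200 kb. The InvF library, in which no separation changed, had the lowest ratio of the 3 mutants. A level below WT was not confined to the rectangle. Pairs within the left stretch, whose separation no allele changes, were also below WT at 3 to 3.5 Mb. Their ratio there was 0.931 for DelB (0.870 to 0.996), 0.873 for DelBs (0.815 to 0.935) and 0.833 for InvF (0.775 to 0.895). At 1 to 1.5 Mb they were above WT, with DelB at 1.10, DelBs at 1.13 and InvF at 1.04. Whether the rectangle shares this difference between libraries was not tested.

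The ratios of the rectangle were also set beside pairs of the same left stretch with the 490 kb that lie between the inversion and the deletions. No allele changes the separation of these pairs. From 4420 kb up to their largest separation of 5.38 Mb, 3577 such unshortened pairs held 43.7 scaled counts per 100 in DelB, 43.2 in DelBs, 37.7 in InvF and 40.0 in WT. Divided by their ratio to WT, the ratio of the long-range pairs became 0.923 in DelB (0.862 to 0.988), 0.838 in DelBs (0.783 to 0.896) and 0.877 in InvF (0.816 to 0.943). All 3 mutants were then below WT, but the long-range pairs reach 9.99 Mb, so the separations of the compared pairs were not alike. The 490 kb also end at breakpoints of the inversion and of the deletions. Over separations of 1 to 5.5 Mb, the ratio of the unshortened pairs to WT ranged from 0.909 to 1.24 in DelB, 0.877 to 1.33 in DelBs and 0.787 to 1.04 in InvF. Whether these pairs give the level without shortening was not tested. Divided instead by the ratio of pairs within the left stretch at 2 Mb and more, the long-range ratio stood at 0.965 for DelB (0.942 to 0.988). By the same measure DelBs stood at 0.850 (0.830 to 0.870) and InvF at 0.879 (0.857 to 0.902). Those left-stretch pairs lie closer together than any pair of the rectangle. At 4.5 to 5 Mb and at 5 to 5.5 Mb, the unshortened pairs alone had ratios to WT of 1.10 and 1.16 in DelB, 1.08 and 1.14 in DelBs, and 0.945 and 1.01 in InvF. The long-range pairs of the same separations had 1.43 and 1.23 in DelB, 1.36 and 1.07 in DelBs, and 0.889 and 0.840 in InvF. At like separation the long-range ratio was thus above the unshortened one in both classes in DelB. In DelBs it was above only at 4.5 to 5 Mb, and in InvF in neither class. Scaled instead by the total of all counts, both deletions were above WT, DelB at 1.34 (1.33 to 1.36) and DelBs at 1.20 (1.18 to 1.21). This total includes pairs of the deleted bins, which only WT and InvF hold in full, so it is not a like measure for the deletions. By it, counts were divided by 1.08 in DelB, 1.13 in DelBs and 1.18 in InvF, against 1.43, 1.50 and 1.24 by the same-side pairs. Whether the deletions stood level with, above or below WT overall thus depended on the scaling, and InvF was below WT under each scaling tried.

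**Figure D1:**
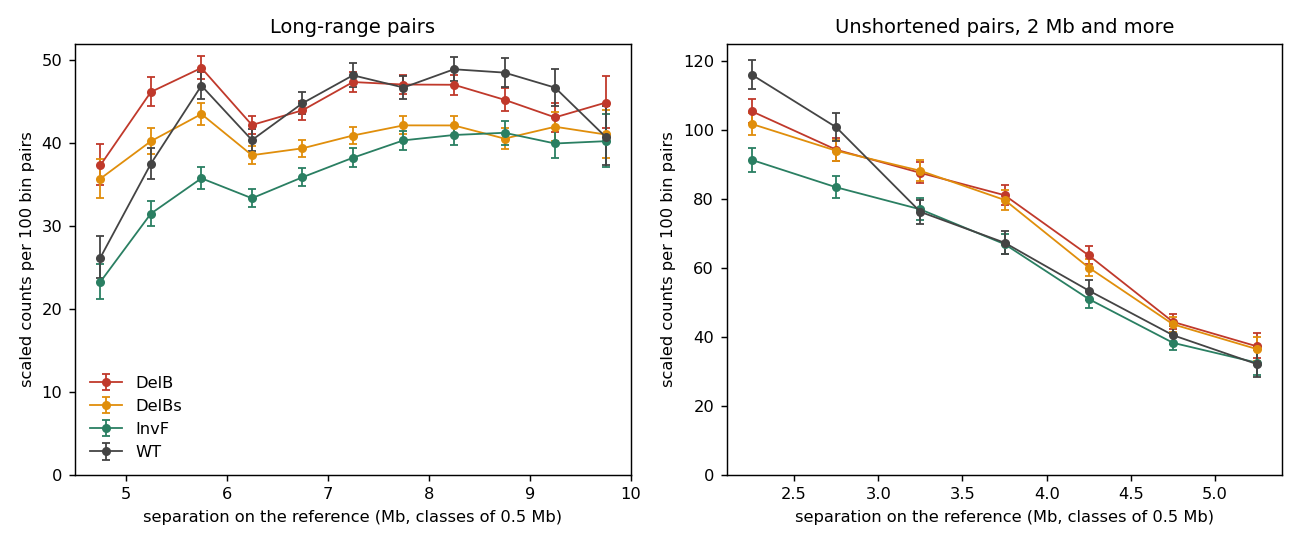
Scaled counts per 100 bin pairs (y axes, linear) against separation on the reference in Mb, in classes of 0.5 Mb, for the long-range pairs (left panel) and for unshortened pairs at 2 Mb and more (right panel). Points are 1 library each of DelB, DelBs, InvF and WT, and bars are 95% counting intervals. In WT the long-range level was 26.1 at 4.5 to 5 Mb and 48.8 at its highest, while the unshortened level fell with separation to 32.1 at 5 to 5.5 Mb.

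Counts did not fall with separation inside the rectangle. In WT the level was 26.1 counts per 100 pairs at 4.5 to 5 Mb and 37.5 at 5 to 5.5 Mb, and from 5.5 to 9.5 Mb it lay between 40.3 and 48.8. The slope of log10 count on log10 separation was 0.05 in DelB (-0.00 to 0.10), 0.10 in DelBs (0.04 to 0.15), 0.54 in InvF (0.48 to 0.61) and 0.40 in WT (0.33 to 0.46). A positive slope means more counts at larger separation, and both deletions had flatter slopes than InvF and WT. With an added term for each 100 kb strip of the rectangle, the slopes were -2.88 in DelB, -3.70 in DelBs, -2.07 in InvF and -1.52 in WT. The sign of the slope thus depended on whether the level of each strip was taken out. The slopes with strip terms carry no interval. Separation is largely set by strip position in the rectangle, so these slopes are not a measured decay.

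With the same-side scaling, the nearest pairs were higher than in WT in both deletions, and the far ones were not. Under 5 Mb of separation (1711 pairs), the scaled level per 100 pairs was 37.1 in DelB, 35.4 in DelBs, 23.4 in InvF and 26.4 in WT. The ratio to WT there was 1.40 in DelB (1.25 to 1.58), 1.34 in DelBs (1.20 to 1.50) and 0.884 in InvF (0.777 to 1.01). At 5 to 6 Mb (10850 pairs) the level was 47.9 in DelB, 42.2 in DelBs, 34.1 in InvF and 43.2 in WT, and ratios to WT were 1.11 in DelB and 0.975 in DelBs, with InvF at 0.788. At 6 Mb and more (56817 pairs) it was 45.3 in DelB, 40.6 in DelBs, 38.3 in InvF and 46.0 in WT. The ratio to WT there was 0.984 in DelB (0.969 to 1.00), 0.884 in DelBs (0.870 to 0.899) and 0.833 in InvF (0.819 to 0.847).

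Dividing the near ratio by the far ratio of the same libraries removes the scale factor of each library. It does not remove a difference between libraries in how counts change with separation. Within the left stretch, where no separation changed, the ratio to WT was also higher at 1 to 1.5 Mb than at 3 to 3.5 Mb. The values were 1.10 and 0.931 in DelB, 1.13 and 0.873 in DelBs, and 1.04 and 0.833 in InvF. Whether such a difference contributes to the near ratio was not tested. The ratio of the near pairs to WT was 1.43 times that of the far pairs in DelB (1.27 to 1.60), 1.52 times in DelBs (1.35 to 1.70) and 1.06 times in InvF (0.934 to 1.21). Against the unshortened pairs the near ratio was 1.30 in DelB (1.14 to 1.49), 1.26 in DelBs (1.10 to 1.44) and 0.953 in InvF (0.821 to 1.11). Both deletions were thus above 1 beyond counting error in both comparisons, and InvF was not. These comparisons were added after the values by separation had been seen. They rest on few counts: 910 in DelB, 907 in DelBs, 497 in InvF and 452 in WT.

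The WT decay was taken as the mean WT count of all bin pairs of the map at each separation. Its value at the shortened separation was divided by that at the full separation. It includes bins outside the stretches, also the deleted ones, whereas WT counts inside the rectangle did not fall with separation unless strip terms were added. The ratio is therefore a reference from the whole map. What shortening alone would bring to these pairs was not tested. Under 5 Mb it was 1.73 for the DelB shortening and 1.49 for the DelBs shortening, against the measured 1.40 in DelB and 1.34 in DelBs. At 5 to 6 Mb it was 1.35 for DelB and 1.31 for DelBs, against 1.11 in DelB and 0.975 in DelBs, and at 6 Mb and more it was 1.11 for DelB and 1.08 for DelBs, against 0.984 in DelB and 0.884 in DelBs. With this scaling the measured ratio was below the one read from the WT decay in each of these 3 classes, with the counting interval of the near class reaching up to 1.58 in DelB and 1.50 in DelBs. A scaling by the total of all counts, which includes the deleted bins, was added after the values were seen. The measured ratios were then 1.87, 1.48 and 1.31 in DelB and 1.77, 1.29 and 1.17 in DelBs, from the near to the far class. They were then above the WT decay in every class except DelBs at 5 to 6 Mb, so no order against the decay held under both scalings except there.

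**Figure D2:**
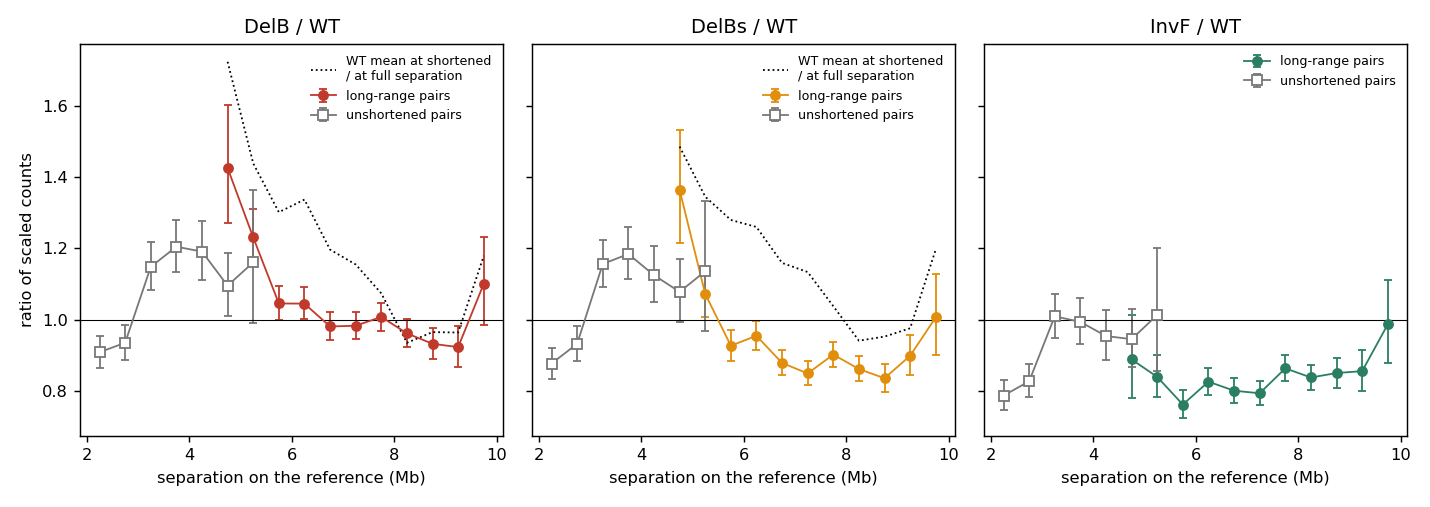
Ratio of scaled counts to WT (y axis, linear) against separation on the reference in Mb, in classes of 0.5 Mb, for DelB, DelBs and InvF. Filled points are the long-range pairs, open squares the unshortened pairs, and bars are 95% counting intervals. The dotted line is the WT decay of the whole map at the shortened separation over that at the full separation. The long-range ratio was 1.43 in DelB and 1.36 in DelBs at 4.5 to 5 Mb and close to or below 1 from 6.5 to 9.5 Mb, while InvF stayed between 0.762 and 0.987.

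Pairs under 5 Mb can only have their left bin at the end of the left stretch that is closest to the deletions. The strips there also hold pairs of larger separation. In DelB, the last left strips of 100 kb had ratios to WT of 1.12 at chr1:74100001-74200000, 1.15 at chr1:74200001-74300000, 1.25 at chr1:74300001-74400000, 1.26 at chr1:74400001-74500000, 1.21 at chr1:74500001-74600000 and 1.29 at chr1:74600001-74700000. These 6 were the only left strips of DelB whose interval lay wholly above 1, and the median over all 37 left strips was 0.984. In DelBs the last 4 of these strips had ratios of 1.10 to 1.12, each with an interval that started at 0.993 to 1.01, and the median over the left strips was 0.887. In InvF no strip was above 1: the ratios lay between 0.730 and 0.948 over the 37 left strips and between 0.751 and 0.919 over the 18 right strips. On the right side DelB was highest in the strips nearest to the deletion, with 1.13 at chr1:79200001-79300000 (1.05 to 1.21).

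Few single blocks differed from WT by more than 1 log2 unit, and in each mutant blocks that much higher than WT made up a smaller share than over the rest of the map. The rectangle held 666 full blocks of 100 kb by 100 kb, and a block entered a comparison if either library had 50 counts or more. In DelB 5 of 544 blocks (0.919%) were that much higher than in WT, against 8.76% of the other blocks of the map, and 0 were lower. In DelBs 0 of 504 blocks were higher, against 5.85% elsewhere, and 1 (0.198%) was lower, against 0.0373% elsewhere. In InvF 0 of 327 blocks were higher, against 3.23% elsewhere, and 3 (0.917%) were lower, against 5.41% elsewhere. The other blocks include those the rearrangements bring together, and they hold more counts per block.

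The spread of the block ratios was close to that from counting. The log2 ratio to WT had a median of 0.01 in DelB and -0.15 in DelBs, with InvF at -0.25. Its SD over blocks was 0.33 in DelB and 0.34 in DelBs, with InvF at 0.33, against 0.29 for DelB, 0.30 for DelBs and 0.32 for InvF from counting error alone. The block with the highest ratio in both deletions was chr1:74500001-74600000 with chr1:79500001-79600000, 5 Mb apart. It held 49 counts in DelB, 48 in DelBs, 22 in InvF and 13 in WT, and its ratio to WT was 2.63 in DelB (1.40 to 5.28), 2.47 in DelBs (1.32 to 4.96) and 1.36 in InvF (0.656 to 2.94). It was chosen for that ratio, and its WT count was among the lowest of the rectangle for its row and column, so the value is a description.

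Of the corners, the nearest full block, chr1:74600001-74700000 with chr1:79200001-79300000, held 62 counts in DelB, 43 in DelBs, 25 in InvF and 34 in WT. Scaled, its ratio to WT was 1.27 in DelB (0.824 to 1.99), 0.845 in DelBs (0.526 to 1.37) and 0.591 in InvF (0.338 to 1.02), all with intervals that include 1. The farthest block, the first 100 kb of the left stretch with chr1:80900001-81000000, held 73 counts in DelB, 71 in DelBs, 55 in InvF and 37 in WT. Its ratio to WT was 1.38 in DelB (0.915 to 2.10), 1.28 in DelBs (0.850 to 1.96) and 1.20 in InvF (0.774 to 1.87). The corner farthest apart thus had at least as many counts as the nearest one in every library.

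Blocks differed among themselves by more than counting error, and most of that spread lay between whole strips. Counts per block ran over 20 to 133 in DelB (median 64), 16 to 111 in DelBs (median 60), 11 to 100 in InvF (median 45) and 11 to 93 in WT (median 43). With separation alone as the expected level, the chi-square per degree of freedom, which is 1 where counting error accounts for the spread, was 4.89 in DelB, 4.43 in DelBs, 3.88 in InvF and 4.62 in WT. With a term for each left and each right strip it was 1.42 in DelB, 1.46 in DelBs, 1.27 in InvF and 1.72 in WT. Some spread thus remained that neither strips nor separation described.

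The profiles of the right strips followed each other in the 4 libraries. The highest was chr1:79800001-79900000, at 1.45 times the level for its separation in DelB, 1.46 in DelBs, 1.49 in InvF and 1.52 in WT. One of the lowest was chr1:80800001-80900000, at 0.747 in DelB, 0.710 in DelBs, 0.725 in InvF and 0.704 in WT. In WT the next highest were chr1:80000001-80100000 at 1.31 and chr1:80200001-80300000 at 1.26, and the other low ones were chr1:80900001-81000000 at 0.719 and chr1:79200001-79300000 at 0.765.

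The left strips varied less. In WT the highest were chr1:73200001-73300000 at 1.27, chr1:72400001-72500000 at 1.24 and chr1:71800001-71900000 at 1.16. The lowest in WT were chr1:74400001-74500000 at 0.734, chr1:74300001-74400000 at 0.757 and chr1:73900001-74000000 at 0.830. The first 2 of these low strips lie at the near end of the left stretch, where the WT level at the shortest separations was also low.

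**Figure D3:**
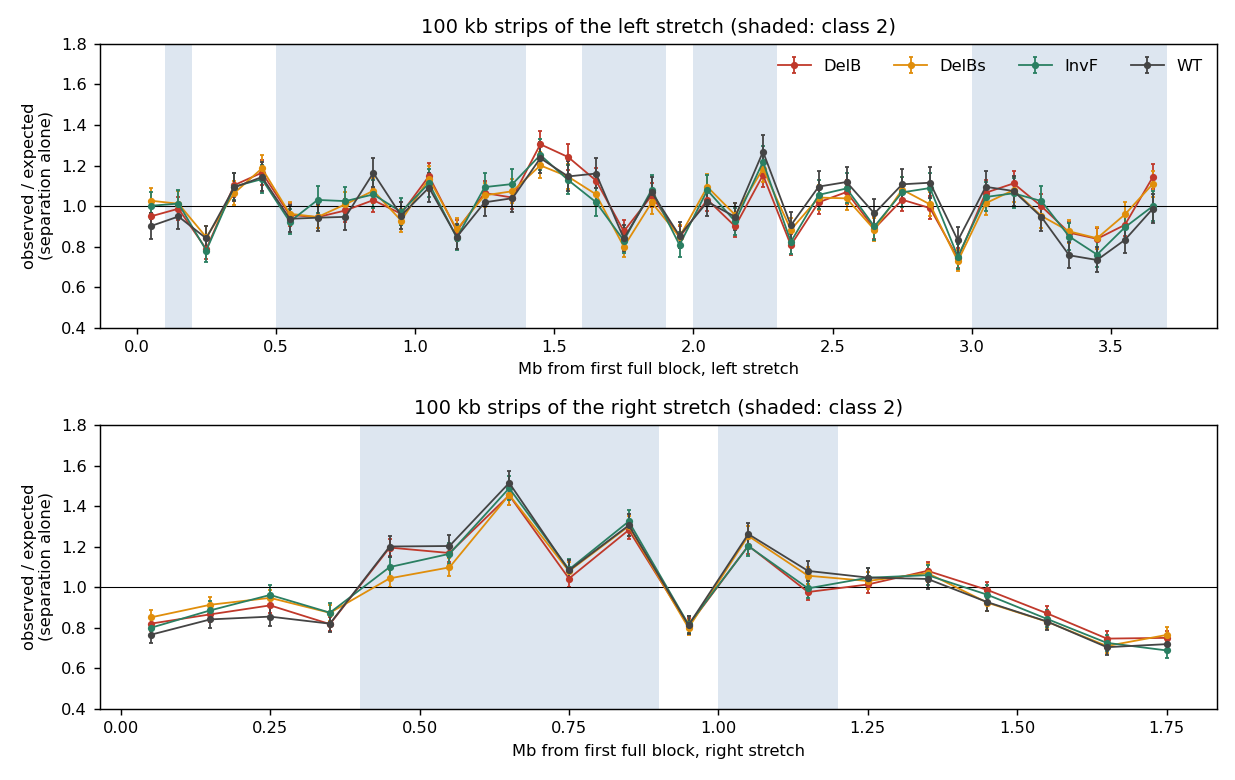
Observed over expected counts of each 100 kb strip (y axes, linear; expected from separation alone) against position in Mb from the first full block of the left stretch (upper panel) and of the right stretch (lower panel), for DelB, DelBs, InvF and WT. Bars are 95% counting intervals and shading marks strips of class 2 as set by WT. The 4 libraries follow each other, with a peak of 1.45 to 1.52 in the right stretch.

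A checkerboard was present on top of the strips. For each library, expected counts came from a term for every left strip, a term for every right strip and a power of the separation. The strongest pattern in the WT remainder, its first singular component, held 44.6% of the remaining squared deviation in WT, and the signs of this component put each strip into class 1 or class 2. The same component computed in each mutant held 35.0% in DelB and 42.2% in DelBs, with InvF at 27.1%. The second component held 7.97% to 11.9%. The class numbers are arbitrary, and neither class is named as active or inactive here.

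In WT the left runs of at least 300 kb were chr1:71200001-71500000 and chr1:73300001-74000000 in class 1, and chr1:71500001-72400000, chr1:72600001-72900000, chr1:73000001-73300000 and chr1:74000001-74700000 in class 2. On the right, chr1:79200001-79600000 and chr1:80400001-81000000 were in class 1 and chr1:79600001-80100000 was in class 2. Classes set in each library by itself matched those of WT in most strips. The sign was that of WT in 31 of 37 left and 17 of 18 right strips of DelB, in 29 and 17 of DelBs, and in 32 and 16 of InvF. In all 4 libraries, 11 left strips were in class 1, 16 in class 2 and 10 changed class. On the right 9 were in class 1, 7 in class 2 and 2 changed class. The longest left runs that held in every library were chr1:73300001-73900000 in class 1 and chr1:74000001-74700000 in class 2.

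The libraries that had no part in setting the classes showed the same pattern. Blocks whose strips share a class were divided, as observed over expected, by blocks whose strips differ in class. With classes from WT this contrast was 1.11 in DelB (1.09 to 1.13), 1.12 in DelBs (1.10 to 1.14) and 1.11 in InvF (1.08 to 1.13). The value for WT, which set the classes, was 1.20 (1.17 to 1.23) and is a description. Blocks of strips sharing a class thus held more counts relative to their strips in each mutant.

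To set the libraries on an equal footing, classes for each library were also taken from the other 3 libraries summed, a choice made after the first values were seen. The contrast was then 1.13 in DelB (1.10 to 1.15), 1.14 in DelBs (1.12 to 1.16), 1.11 in InvF (1.09 to 1.14) and 1.18 in WT (1.15 to 1.20). WT was highest here as well. Measured with classes from one other library, WT had 1.17 with those of DelB, 1.15 with those of DelBs and 1.15 with those of InvF. Under the same rule DelB lay at 1.10 to 1.12, DelBs at 1.11 to 1.15 and InvF at 1.11. How far such a difference between single libraries goes beyond the spread between embryos cannot be told with 1 library per genotype.

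When the classes were instead taken from the WT map with these pairs masked, so from the rest of the map, the contrast was 0.987 in DelB (0.968 to 1.01), 0.979 in DelBs (0.959 to 0.998), 0.976 in InvF (0.954 to 0.998) and 1.01 in WT (0.985 to 1.03). Those classes therefore did not mark the checkerboard, and in DelBs and InvF the contrast was slightly below 1 beyond counting error. With these pairs masked, left and right strips could be compared only through their contacts with the bins between the stretches. The contrast thus cannot tell whether the rest of the map holds a checkerboard. Conversely, the WT classes carried over weakly to pairs within the left stretch at least 1 Mb apart, where the contrast was 1.02 in DelB (1.01 to 1.02), 1.02 in DelBs (1.01 to 1.02), 1.02 in InvF (1.01 to 1.03) and 1.05 in WT (1.03 to 1.06).

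**Figure D4:**
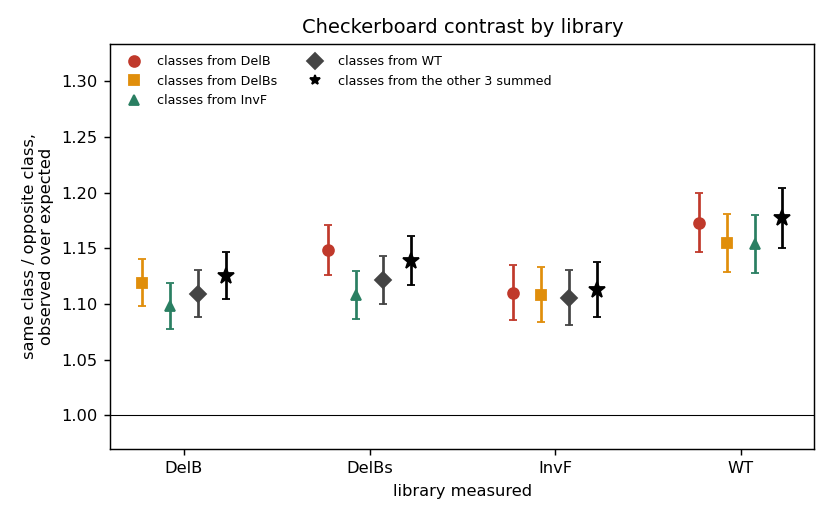
Checkerboard contrast (y axis, linear: observed over expected of same-class blocks divided by that of opposite-class blocks) in DelB, DelBs, InvF and WT, with 95% counting intervals. Each symbol stands for the library, or sum of the other 3 libraries, that set the classes, and no library is shown with its own classes. All values lie above 1, with WT at 1.15 to 1.18 and the mutants at 1.10 to 1.15.

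At the near end of the left stretch, neighbouring runs had opposite preferences. The class 1 run chr1:73300001-74000000 met the class 1 run chr1:79200001-79600000 at 1.04 times its expected count in DelB, 1.06 in DelBs, 1.08 in InvF and 1.17 in WT. With the class 2 run chr1:79600001-80100000 it stood at 0.937 in DelB, 0.946 in DelBs, 0.936 in InvF and 0.868 in WT. Its neighbour, the class 2 run chr1:74000001-74700000, did the reverse. It stood at 0.898 in DelB, 0.886 in DelBs, 0.891 in InvF and 0.849 in WT with chr1:79200001-79600000, and at 1.07 in DelB, 1.08 in DelBs, 1.06 in InvF and 1.08 in WT with chr1:79600001-80100000. For these runs preference thus changed over within the left stretch near 74 Mb and within the right stretch near 79.6 Mb in every library. The DelB value of 1.04 had an interval that includes 1 (0.992 to 1.10), and the WT values are a description, as WT set the classes. Not every run was as clear: the class 2 run chr1:73000001-73300000 with chr1:79200001-79600000 stood at 0.978 in DelB, 1.04 in DelBs, 0.982 in InvF and 0.984 in WT.

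At the far end of the left stretch the pattern was present as well. The class 1 run chr1:71200001-71500000 stood at 1.12 in DelB, 1.17 in DelBs, 1.12 in InvF and 1.11 in WT with chr1:80400001-81000000, the right run farthest away. With the class 2 run chr1:79600001-80100000 it stood at 0.868 in DelB, 0.833 in DelBs, 0.880 in InvF and 0.928 in WT. In these pairs of runs the mutants were as far from 1 as WT or farther, with intervals that overlapped those of WT. With chr1:79200001-79600000 the same run stood at 1.13 in DelB, 1.17 in DelBs, 1.09 in InvF and 1.11 in WT, so InvF was closer to 1 than WT there. The lower contrast of the mutants was therefore not shared by every pair of runs.

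Block by block, 105 of the 315 same-class blocks (33.3%) were above 1 in all 3 mutants and 23 (7.30%) were below 1 in all 3. Of the 351 opposite-class blocks, 22 (6.27%) were above 1 in all 3 mutants and 106 (30.2%) were below. Over the 666 blocks, the correlation between 2 libraries of what remained after strips and separation was 0.275 to 0.366, and of the log counts 0.720 to 0.776, given as descriptions over blocks that share strips and, between libraries, the capture design.

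**Figure D5:**
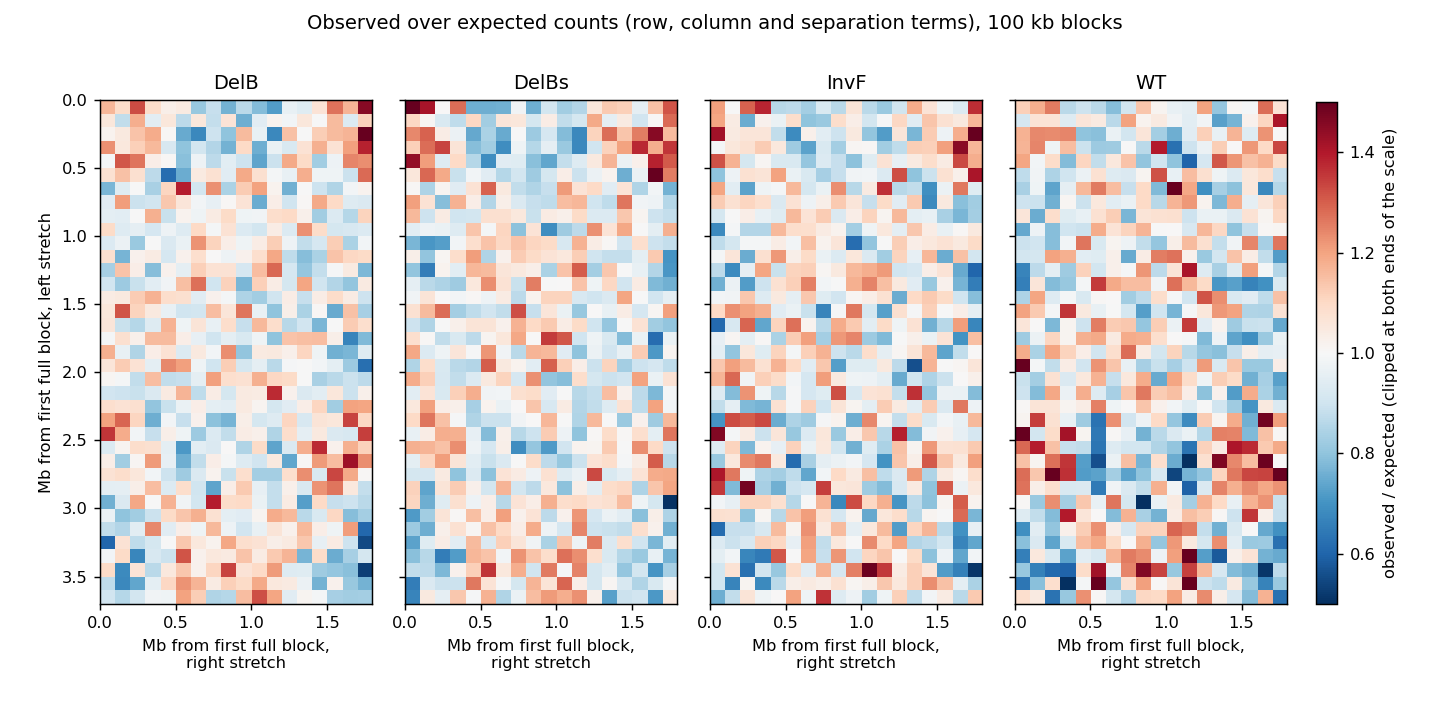
Observed over expected counts of the 666 blocks of 100 kb in DelB, DelBs, InvF and WT, with expected counts from strip and separation terms; the y axis is Mb from the first full block of the left stretch, the x axis Mb from that of the right stretch, and colours beyond 0.5 to 1.5 are clipped. Patches above 1 (red) and below 1 (blue) are most plain in the lower part of the WT panel, and single blocks, at 11 to 133 counts, scatter around them.

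The 10 highest WT blocks were all of the same-class kind and the 10 lowest all of the opposite kind, a match that follows from setting the classes on these WT blocks. Summed, the highest stood at 1.18 in DelB (1.09 to 1.27), 1.08 in DelBs (0.994 to 1.17), 1.10 in InvF (0.994 to 1.21) and, as chosen, 1.56 in WT. The lowest stood at 0.887 in DelB (0.813 to 0.965), 0.935 in DelBs (0.858 to 1.02), 0.860 in InvF (0.773 to 0.955) and, as chosen, 0.540 in WT. The mutants were on the same side of 1 as WT in both sets, with intervals that reached 1 for the highest set in DelBs and InvF and for the lowest set in DelBs. The highest of all in WT was chr1:73700001-73800000 with chr1:80900001-81000000, with 49 counts in DelB, 57 in DelBs, 36 in InvF and 59 in WT. Its observed over expected value was 1.01 in DelB, 1.19 in DelBs, 1.09 in InvF and 1.68 in WT.

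Class also went with the level of the right strips. Class 2 right strips held 1.35 times the counts of class 1 right strips in DelB (1.33 to 1.38), 1.34 in DelBs (1.31 to 1.36), 1.34 in InvF (1.31 to 1.37) and 1.44 in WT (1.40 to 1.47). In all 4 libraries, 9 of the 11 class 1 right strips were below 1 for their separation and 6 of the 7 class 2 right strips were above it. The median same-side count of these strips, which moves with coverage by probes and reads, was also higher in class 2, by 1.26 times in DelB, 1.20 in DelBs, 1.20 in InvF and 1.29 in WT. In the authors' KR-balanced maps, where every bin is brought to about the same sum, the median level of the right strips was 1.11 for class 2 and 0.954 for class 1 in DelB, 1.10 and 0.915 in DelBs, 1.14 and 0.925 in InvF, and 1.15 and 0.895 in WT. On the left, class 2 held 1.01 times the counts of class 1 in DelB, 1.00 in DelBs, 0.990 in InvF and 0.953 in WT. The median same-side count there was lower in class 2, at 0.848 times that of class 1 in DelB, 0.876 in DelBs, 0.838 in InvF and 0.854 in WT. The part of coverage in the strip levels was otherwise not tested.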

How the data were processed

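Capture Hi-C maps of distal limb buds from 4 genotypes, 1 library each, were analysed. The submitters' processing notes name Bowtie2 2.2.6 as the tool and mm9 as the build. The raw maps deposited by the authors give unnormalized counts of read pairs between 10 kb bins. Per the file names, the mapping quality limit was 30. The normalized maps deposited by the authors hold a KR-balanced signal per pair of bins, and served as an alternative. The sources used here do not say whether PCR duplicates were removed, so counts were treated as independent and intervals cover counting error only. The deposited difference maps hold none of these pairs and were not used. No column was left unmatched (0).

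Samples were grouped by the labelled genotype. Deletions were located as runs of bins under 10% of the WT counts, and the inversion by the contacts at its ends. The 95% intervals are conditional binomial for level ratios and Poisson for observed over expected counts, both exact. Intervals of ratios of ratios and of contrasts come from the Poisson counts on the log scale. Blocks of 100 kb were fitted by a Poisson model with left strip, right strip and log separation; block ratios had a pseudocount of 1 and at least 50 counts in 1 of the libraries. Only full blocks on a 100 kb grid entered the fit, which leaves out the ends of both stretches. Of the right bins, 2 had under 10% of the median coverage and were kept in the main values. No test was possible with 1 library per genotype. Named regions followed a rule: the 10 highest and 10 lowest WT blocks, the 3 highest and 3 lowest WT strips per side, the corner blocks, class runs of at least 300 kb, and the 5 highest and 5 lowest blocks per mutant by ratio to WT, of which only the highest of the deletions is printed; the other strips and single blocks named were picked after their values were seen. The pairs, lists and comparisons were chosen with earlier results of these data known. Alternatives were another scaling, block size, grid, pseudocount and count minimum, KR-balanced values, and other sources of the classes. Functions were tested on simulated data. Python 3.11.15, numpy 2.4.6, scipy 1.17.1, pandas 2.3.3 and matplotlib 3.10.9 were used.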

Additional observations from a re-analysis of the deposited data

Results flagged for a closer look

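Some counts were found in data outside the comparisons above, namely between the stretches and bins that the deletions remove. In DelB the deleted bins held 2.64% of the scaled WT count with the left stretch (1700 counts) and 2.38% with the right stretch (1205 counts). In DelBs they held 1.14% with the left stretch (675 counts) and 1.35% with the right stretch (546 counts). Per 100 bin pairs this was 1.92 scaled counts in DelB against 72.5 in WT on the left and 2.72 in DelB against 114 in WT on the right. In DelBs it was 0.828 against 72.9 in WT on the left and 1.34 against 99.7 in WT on the right. The source of these counts was not tested.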

How the results depend on the processing

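Scaled to the total of all counts, which includes the deleted bins, the ratio to WT was 1.34 in DelB, 1.20 in DelBs, where the direction turned, and 0.873 in InvF. Scaled to the unshortened pairs, which reach 5.38 Mb at most, it was 0.923 in DelB and 0.838 in DelBs, with InvF at 0.877. With KR-balanced values it was 1.03 in DelB, and DelB over DelBs was 1.14 when scaled to the left stretch. The near ratio against the far ratio in DelBs was 1.30 with limits of 5.5 and 7 Mb. The checkerboard contrast with the expected level from separation alone was 1.34 in DelB, 1.32 in DelBs, 1.35 in InvF and 1.47 in WT. With classes from the WT map with these pairs masked it was 0.987 in DelB and 0.979 in DelBs, with InvF at 0.976, where it turned, and 1.01 in WT. A grid moved by 50 kb gave 1.09 in DelBs. Slopes on separation with KR-balanced values were 0.23 in DelB, 0.27 in DelBs, 0.78 in InvF and 0.56 in WT. Blocks over 1 log2 unit from WT numbered 5 in DelB (all higher), 1 in DelBs (lower) and 3 in InvF (all lower) in the main setting. With blocks of 50 kb none reached the count minimum, and with 200 kb there were 0 in DelB and 0 in DelBs, with InvF at 0. By the total of all counts it was 25 in DelB and 8 in DelBs, all higher, with InvF at 0, and with the pseudocount at 5 it was 1 in DelB (higher) and 0 in DelBs, with InvF at 0. With at least 20 counts it was 5 in DelBs (2 higher, 3 lower) and 6 in InvF (all lower). Scaled to the long-range pairs it was 1 in DelBs and 1 in InvF, both higher, so that the direction turned in both. The cause of these changes was not tested. No paired analysis was possible because each genotype had 1 library, which also means that no library could be left out. Depth limited the comparison to sums over blocks.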
